A study of Sus scrofa with 16 samples.

Results

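The genes described here are the heat shock proteins and folding chaperones of the pig left ventricle. Members were the genes whose symbol in the array annotation starts with HSP, DNAJ, CCT and a digit, PDIA or BAG, together with CANX, CALR, TCP1, STIP1, DDIT3, XBP1 and ATF4. This rule uses names only and took 65 genes with 112 probe sets, out of 6765 named genes and 23935 probe sets tested. A probe set is a group of short oligonucleotides on the array that read 1 transcript together. Each gene is represented by its brightest probe set, the one with the highest mean over all arrays, unless another is named. HSPB11 came in by its symbol, although its product is known as a part of intraflagellar transport, so it was placed in no chaperone class. HSPA1A, HSPA1B, HSPA1L and CCT5 were not analysed here.

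The study asked how exercise training, which enlarges the heart physiologically, alters gene expression in the left ventricle of swine. Frozen left ventricular myocardium came from Yorkshire x Landrace pigs of 2 to 3 months, with tissue taken 4 to 5 weeks after the protocol began. There were 8 exercise-trained and 8 sedentary animals, each group with 4 females and 4 males, and every male was neutered. Total RNA of each animal was hybridised to 1 Affymetrix array, and the values are log2 signals per probe set as the authors deposited them. The kind and dose of the exercise are not given in the sources used here, no intact male was studied, and castration was common to the males of both groups.

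Chaperones bind unfolded or partly folded proteins, and many of them release these proteins in cycles driven by ATP. The HSP70 proteins work with J proteins (DNAJ), which bring in the substrate and start ATP hydrolysis, and with nucleotide exchange factors such as the BAG proteins, which let the substrate go. HSP90 completes the folding of kinases and receptors, the ring-shaped chaperonin TRiC folds actin and tubulin, and the small heat shock proteins hold unfolding proteins in muscle, where they are abundant. The endoplasmic reticulum has a set of its own, and XBP1, ATF4 and DDIT3 are transcription factors of its unfolded protein response. Heat, ischaemia and exercise are textbook inducers of the cytosolic heat shock genes in heart muscle.

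The arrays fell into separate sets that the labels do not name. The signal of 42 poly-A control probe sets, which report bacterial transcripts added before labelling, averaged 7.63 ± 0.33 log2 (SD) on 11 arrays and 5.99 ± 0.20 on the other 5. The high set held 6 exercised and 5 sedentary animals. The low set held exercised 7 and 8 and sedentary 6, 7 and 8, of which only sedentary 8 was female, so sex and array set overlapped in part. In the members that follow, sedentary 3 stood apart from its group, and results that rest on it are given with and without it.

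Of the 65 members, 7 passed the test for training, 2 higher and 5 lower in exercised animals. Across all named genes 10.0% passed, 5.11% higher and 4.91% lower, so the members' total was close to the background. The test was limma's moderated test on the training effect averaged over the sexes, and passing means a Benjamini-Hochberg adjusted p under 0.05 over all probe sets. HSP70.2, HSPA5, DNAJB4, BAG1 and DNAJC6 fell, and HSPA14 and DNAJC8 rose. The median change of the members was -0.05 log2, against 0.01 over all named genes. A change below 0 was seen in 44 of 65 members and in 3173 of 6765 named genes. At an unadjusted p under 0.05 there were 17 members (26.2%), against 22.9% of all named genes. The tissue was bulk myocardium, in which fewer cells of a type and less RNA per cell cannot be told apart.

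**Figure D1:**
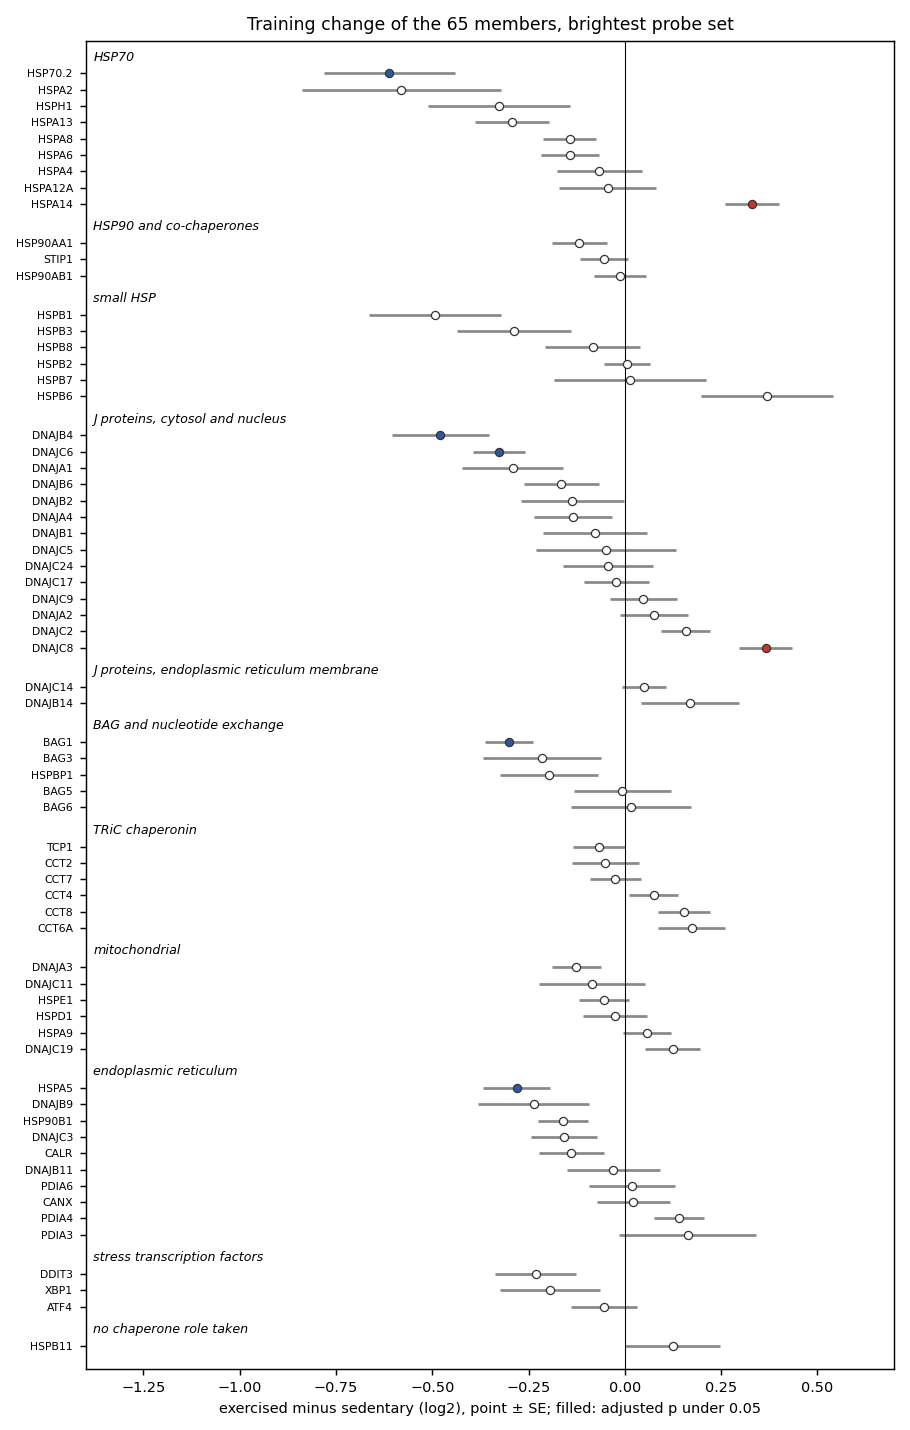
Training change (exercised minus sedentary, log2) of each of the 65 members on its brightest probe set, grouped by role, with the point at the estimate and the bar at 1 SE on either side. Filled points passed the test, blue for lower and red for higher. The changes run from -0.61 for HSP70.2 to 0.37 for HSPB6. Filled points lie only in the HSP70 class, the J proteins of cytosol and nucleus, the BAG class and the endoplasmic reticulum class.

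Among the 9 genes placed in the HSP70 class, 1 rose and 1 fell. HSPA5 and HSPA9, HSP70 genes of the endoplasmic reticulum and of mitochondria, were placed with those compartments, and HSPA5 also fell. HSPA13, also an HSP70 gene of the endoplasmic reticulum, was kept in the HSP70 class. HSP70.2, an inducible cytosolic HSP70 of the pig, ran from 9.50 through a median of 9.80 to 10.14 log2 in exercised animals, and from 10.01 through 10.34 to 11.51 in sedentary animals. All 8 exercised animals lay below the sedentary mean, but the groups overlapped between 10.01 and 10.14. The change was -0.61 ± 0.17 (SE), 1.53-fold lower in exercised animals (limma, adjusted p = 0.0263). Sedentary 3 alone reached 11.51, while the other 7 sedentary animals ran from 10.01 to 10.57. Without sedentary 3 the change was -0.45 and still passed (adjusted p = 0.0104). The call was lost without exercised 1, sedentary 1 or sedentary 2, with changes of -0.57, -0.57 and -0.59 and adjusted p of 0.0561, 0.0525 and 0.0526. It was also lost when only probe sets above the 40th percentile of level were tested (adjusted p = 0.0557). The change was -0.74 among the arrays with high poly-A control signal and -0.50 among those with low signal. Both other probe sets named HSP70.2 were also lower in exercised animals, at -0.66 (adjusted p = 0.0610) and -0.89 (adjusted p = 0.00737). Pig HSP70 genes include near-identical copies, and how their transcripts share these probe sets is uncertain.

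HSPA14 was the gene of the HSP70 class that rose. Its product is an HSP70 that sits on ribosomes with DNAJC2 and meets proteins as they are made. Exercised animals had 7.62, 7.83 and 7.91 log2 at the lowest, the median and the highest, and sedentary animals 7.30, 7.44 and 7.71. The overlap was small, and all 8 exercised animals lay above the sedentary mean. The change was 0.33 ± 0.07 (SE; limma, adjusted p = 0.00574), and it passed in each of the 16 fits that left out 1 array. DNAJC2, its partner, had 0.16 on its brightest probe set (adjusted p = 0.118) and 0.34 on its other probe set, which passed (adjusted p = 0.0160). On that second probe set the exercised animals ran from 7.61 to 7.99 and the sedentary animals from 7.12 to 7.75.

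The other 7 genes of the HSP70 class did not pass. HSPA2, a cytosolic HSP70 best known from the testis, was spread widely, from 5.39 through 6.22 to 7.22 log2 in exercised and from 5.97 through 7.14 to 7.67 in sedentary animals. Its change was -0.58 ± 0.26 (SE; adjusted p = 0.160), and -1.02 in a fit to the arrays with high poly-A control signal alone, where it passed (adjusted p = 0.0191). Without sedentary 8 it also passed, at -0.74 (adjusted p = 0.0453). HSPA13, an HSP70 bound to the endoplasmic reticulum, had a change of -0.29 ± 0.10 (adjusted p = 0.0548). It passed with the array set as a block, at -0.27 (adjusted p = 0.0440), and in 3 of the 16 fits without 1 array. HSPH1 and HSPA4 encode large HSP70 relatives that act as nucleotide exchange factors, and had changes of -0.33 (adjusted p = 0.277) and -0.07 (adjusted p = 0.761). HSPA8, the constitutive cytosolic HSP70, had 12.13, 12.32 and 12.57 in exercised and 12.29, 12.48 and 12.60 in sedentary animals on its brightest probe set. Its change there was -0.14 ± 0.07 (adjusted p = 0.200). HSPA6 and HSPA12A were dim, at mean levels of 4.18 and 4.93, with changes of -0.14 and -0.04.

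**Figure D2:**
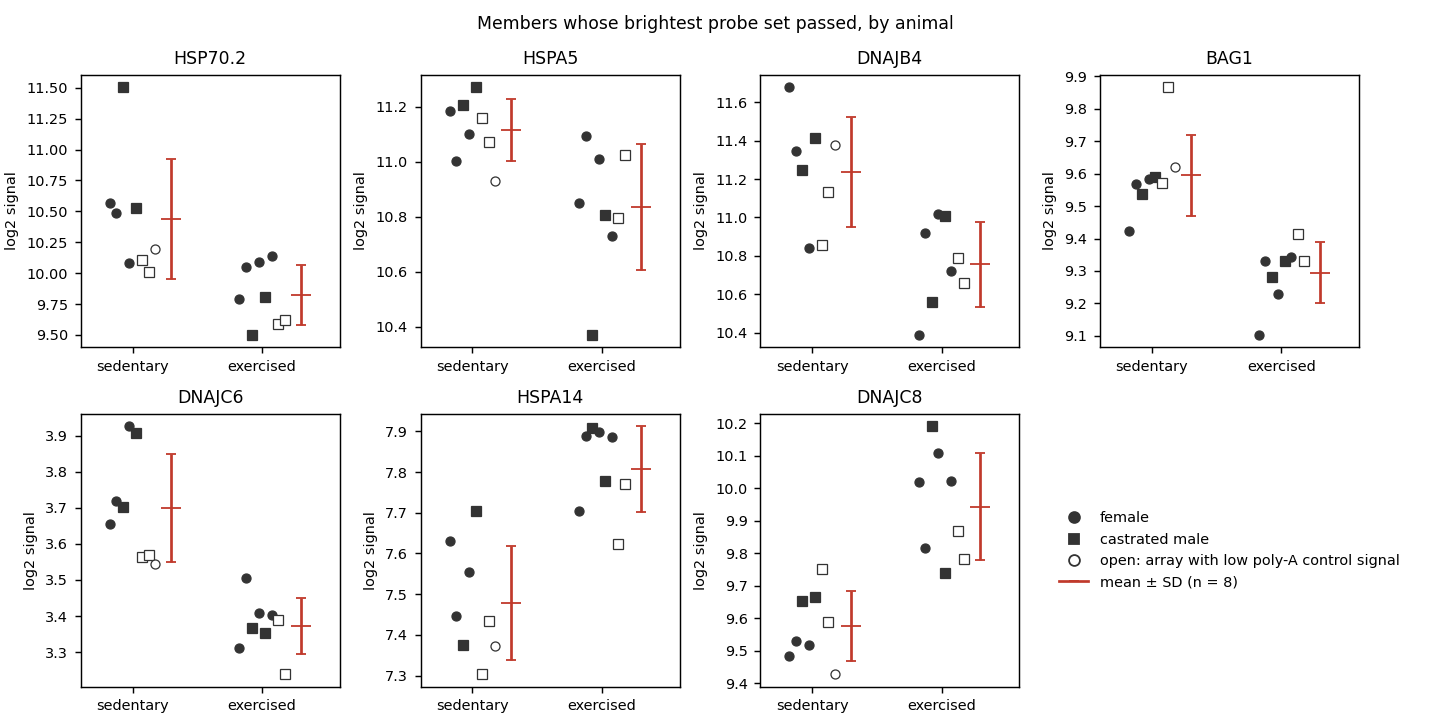
Log2 signal in each animal for the 7 members whose brightest probe set passed the test, with sedentary animals on the left of each panel and exercised animals on the right. Circles are females, squares castrated males, open symbols arrays with low poly-A control signal, and the red bar is the mean ± SD of 8 animals; the groups do not overlap for BAG1 and DNAJC6, and a single sedentary animal of HSP70.2 lies at 11.51.

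Among the 14 J proteins of the cytosol and nucleus, 1 rose and 2 fell. DNAJB4, a J protein of striated muscle that partners HSP70, had 10.39, 10.75 and 11.02 log2 at the lowest, the median and the highest in exercised animals. In sedentary animals it had 10.84, 11.30 and 11.68. The groups overlapped through sedentary 4 and 6, at 10.84 and 10.86. The change was -0.48 ± 0.13 (SE), 1.39-fold lower (limma, adjusted p = 0.0195), and it passed in all 16 fits without 1 array. It did not pass when only probe sets above the 60th percentile of level were tested (adjusted p = 0.0914) or within the arrays with high poly-A control signal, where the change was -0.54 (adjusted p = 0.0692).

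DNAJC8, a J protein found with splicing factors, had 9.74, 9.94 and 10.19 log2 in exercised animals and 9.43, 9.56 and 9.75 in sedentary animals. Only sedentary 6, at 9.75, reached the exercised range. The change was 0.37 ± 0.07 (SE), 1.29-fold higher (limma, adjusted p = 0.00273). The other DNAJC8 probe set had a change of -0.01 (adjusted p = 0.951), and the mean of both had 0.18 (adjusted p = 0.117). DNAJC6, auxilin, which removes clathrin coats, ran from 3.24 through 3.38 to 3.50 in exercised and from 3.54 through 3.68 to 3.93 in sedentary animals. The groups did not overlap, and the change was -0.33 ± 0.07 (SE; adjusted p = 0.00546). These levels lie near the bottom of the array's range, which began at 2.87, and a single probe set measured the gene.

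The other 11 J proteins of the cytosol and nucleus did not pass on the brightest probe set with all arrays. DNAJA1, a main partner of HSP70 in the cytosol, had 9.73, 9.85 and 10.00 log2 in exercised and 9.76, 9.97 and 10.83 in sedentary animals, a change of -0.29 ± 0.13 (SE; adjusted p = 0.163). DNAJB1, the classical heat-inducible J protein, had a change of -0.08 ± 0.14 (adjusted p = 0.774), and DNAJB6, which keeps aggregation-prone proteins apart, -0.16 (adjusted p = 0.304). The 8 other genes of the class (DNAJA2, DNAJA4, DNAJB2, DNAJC2, DNAJC5, DNAJC9, DNAJC17 and DNAJC24) had changes between -0.14 and 0.16. The pair in the endoplasmic reticulum membrane, DNAJB14 and DNAJC14, had 0.17 (adjusted p = 0.443) and 0.05 (adjusted p = 0.637).

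Of the 5 BAG and other nucleotide exchange genes, BAG1 fell and none rose. BAG1, which releases substrates from HSP70 and links it to the proteasome, had 9.10, 9.33 and 9.41 log2 at the lowest, the median and the highest in exercised animals, and 9.42, 9.58 and 9.87 in sedentary animals. The highest exercised animal lay just under the lowest sedentary animal, so the groups did not overlap. Non-overlapping groups were found for 2 of 65 members, BAG1 and DNAJC6, and for 2.23% of all named genes. The change of BAG1 was -0.30 ± 0.06 (SE), 1.23-fold lower (limma, adjusted p = 0.00527), and it lay between -0.32 and -0.26 in the fits without 1 array. Its other probe set, with a mean level of 8.51, had a change of 0.01 (adjusted p = 0.963), and the mean of both had -0.15 (adjusted p = 0.126). BAG3, which with HSPB8 directs damaged muscle proteins to autophagy, had a change of -0.21 ± 0.15 (adjusted p = 0.413). HSPBP1, BAG5 and BAG6 had changes of -0.20, -0.01 and 0.02.

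Neither HSP90 of the cytosol passed on its brightest probe set, nor did their adaptor. HSP90AA1, the inducible form, had 12.45, 12.59 and 12.62 log2 in exercised and 12.49, 12.66 and 13.05 in sedentary animals. Its change was -0.12 ± 0.07 (SE; limma, adjusted p = 0.317). HSP90AB1, the constitutive form, had -0.01 (adjusted p = 0.937), and STIP1, which hands substrates from HSP70 to HSP90, -0.05 (adjusted p = 0.651).

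None of the 6 small heat shock proteins passed limma's test, and 2 had an unadjusted p under 0.05. HSPB1, which guards the actin cytoskeleton, had 11.19, 11.58 and 12.39 log2 at the lowest, the median and the highest in exercised animals and 11.55, 12.17 and 12.71 in sedentary animals. Exercised 7 and 8, the highest of their group at 12.39 and 12.26, were on arrays with low poly-A control signal, and the groups overlapped widely. The change was -0.49 ± 0.17 (SE; adjusted p = 0.0707). With the array set as a block it was -0.41 and passed (adjusted p = 0.0113), and among the arrays with high signal alone it was -0.50 and passed (adjusted p = 0.0326). It also passed without exercised 7, at -0.57 (adjusted p = 0.0409), and without sedentary 4, at -0.58 (adjusted p = 0.0344).

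HSPB6, a small heat shock protein that is phosphorylated downstream of cAMP, had the most positive change of all members, 0.37 ± 0.17 (SE; adjusted p = 0.177). Exercised animals ran from 10.72 through 11.11 to 11.61 and sedentary animals from 10.35 through 10.81 to 11.21. The change was 0.57 among the arrays with high poly-A control signal and -0.05 among those with low signal. HSPB3, a muscle protein that pairs with HSPB2, had -0.29 (adjusted p = 0.227). HSPB8 had -0.08, HSPB7, the cardiovascular member, 0.01, and HSPB2 0.01.

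The TRiC chaperonin and the mitochondrial chaperones held 6 genes each, and limma called 0 of either 6. At an unadjusted p under 0.05 there was 1 in the first class, CCT8, and 0 in the second. The TRiC genes lay between -0.07 for TCP1 and 0.17 for CCT6A (adjusted p = 0.225), with CCT8 at 0.15 (adjusted p = 0.147), CCT4 at 0.07, CCT7 at -0.02 and CCT2 at -0.05. In mitochondria, the chaperonin HSPD1 and its lid HSPE1 had changes of -0.03 ± 0.08 and -0.05 ± 0.07 (SE), and HSPA9, the HSP70 that pulls proteins in through the membrane, 0.06 ± 0.06. DNAJC19, DNAJA3 and DNAJC11 had 0.12, -0.13 and -0.09.

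HSPA5 was the only 1 of 10 genes of the endoplasmic reticulum to pass on the brightest probe set. Its product, BiP, is an HSP70 of that compartment and holds its stress sensors inactive. The lowest, median and highest levels were 10.37, 10.83 and 11.09 log2 in exercised and 10.93, 11.13 and 11.27 in sedentary animals. All 8 exercised animals lay below the sedentary mean, with exercised 3 the lowest at 10.37. The change was -0.28 ± 0.09 (SE), 1.21-fold lower (limma, adjusted p = 0.0428). It passed in 4 of the 16 fits without 1 array, where the change ran from -0.33 to -0.22. Leaving out any of exercised 1, 3, 4, 5, 6 and 7 or sedentary 1 to 6 ended it, with adjusted p from 0.0543 to 0.0833. The change was -0.34 among the arrays with high poly-A control signal and -0.14 among those with low signal. It was also not called when only probe sets above the 40th percentile of level were tested (adjusted p = 0.0903).

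The other genes of the compartment gave no call on the brightest probe set. HSP90B1, its HSP90, had a change of -0.16 ± 0.07 (SE; adjusted p = 0.122), with 10.75 to 11.06 log2 in exercised and 10.82 to 11.23 in sedentary animals. The J proteins DNAJB9, DNAJC3 and DNAJB11, which serve BiP, had -0.24, -0.16 and -0.03. Of the lectins that bind sugar-bearing proteins, CALR had -0.14 (adjusted p = 0.324) and CANX 0.02 (adjusted p = 0.917). Among the disulfide isomerases, PDIA4 had 0.14 (adjusted p = 0.182), PDIA3 0.16 (adjusted p = 0.620) and PDIA6 0.02 (adjusted p = 0.943). The stress transcription factors DDIT3, XBP1 and ATF4 had -0.23 ± 0.10 (adjusted p = 0.167), -0.19 ± 0.13 (adjusted p = 0.378) and -0.05 ± 0.09 (adjusted p = 0.744). XBP1 passed with the array set as a block, at -0.25 (adjusted p = 0.0498), and among the arrays with high signal alone, at -0.40 (adjusted p = 0.0214). Among the arrays with low signal its groups differed by 0.00. Sedentary 3 was the highest animal in XBP1, and without it the change over the remaining arrays was -0.11 (limma, adjusted p = 0.610).

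Several members were measured by more than 1 probe set, and these often differed. Of the 112 member probe sets 15 passed, 7 higher and 8 lower, against 13.4% of all probe sets, 6.48% higher and 6.88% lower. Of the 28 genes with several probe sets, 12 had changes of 1 sign throughout and 16 had both signs. There were 6 genes called only on a dimmer probe set, namely CANX, HSPA8, HSP90AA1, DNAJC2, DNAJA4 and BAG6. Groups did not overlap for 4 of the 112 probe sets, against 3.12% of all probe sets.

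CANX, calnexin, was the 1 gene with probe sets called in opposite directions. Its brightest probe set, at a mean level of 11.20 log2, had a change of 0.02, and the second, at 10.44, had 0.03. The fourth by level had 4.99, 5.31 and 5.48 in exercised and 5.52, 5.70 and 5.82 in sedentary animals. It fell by 0.42 on the log2 scale without overlap (SE 0.08; limma, adjusted p = 0.00234). The fifth, at a mean level of 5.03, had 5.03, 5.21 and 5.38 in exercised and 4.59, 4.79 and 5.18 in sedentary animals, and rose by 0.36 (SE 0.09; adjusted p = 0.0169). Both dim probe sets passed in each of the 16 fits without 1 array.

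HSPA8 and HSP90AA1 were each called on 1 probe set that was not the brightest. All 4 probe sets of HSPA8 had changes below 0. The fourth probe set of HSPA8, at a mean level of 4.10 log2, had 3.62, 3.81 and 3.98 in exercised and 4.26, 4.35 and 4.66 in sedentary animals, without overlap. Its change of -0.57 ± 0.07 (SE; limma, adjusted p = 0.000137) set it apart from its 3 other probe sets, which had -0.14, -0.03 and -0.10. For HSP90AA1 the second probe set, at a mean level of 11.82, had 11.59, 12.03 and 12.18 in exercised and 11.50, 11.72 and 11.81 in sedentary animals. It rose by 0.27 (SE 0.08; adjusted p = 0.0395), while the others had -0.12, -0.06, 0.19 and -0.10. This HSP90AA1 call held in 7 of the 16 fits without 1 array and was lost in the other 9, with changes from 0.22 to 0.27 and adjusted p from 0.0660 to 0.0773. It was lost after quantile normalization as well, at 0.25 (adjusted p = 0.0551).

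DNAJA4 and BAG6 rose on their second probe sets alone. For DNAJA4, a J protein of the cytosol, this probe set had 5.61, 5.78 and 5.89 log2 in exercised and 5.32, 5.51 and 5.70 in sedentary animals, a change of 0.25 ± 0.07 (SE; limma, adjusted p = 0.0204) against -0.13 on the brightest. For BAG6, which guards newly made membrane proteins, the values were 6.70, 6.83 and 7.10 against 6.47, 6.64 and 6.79, a change of 0.25 ± 0.07 (adjusted p = 0.0280) against 0.02 on the brightest. The BAG6 call held in 10 of the 16 fits without 1 array. It was lost without exercised 3, 5 or 6 or sedentary 2, 5 or 7, with changes from 0.21 to 0.24. HSP70.2, BAG3, DNAJB9, HSP90B1, HSPA13, HSPB6 and PDIA3 were among the genes whose probe sets kept 1 sign.

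**Figure D3:**
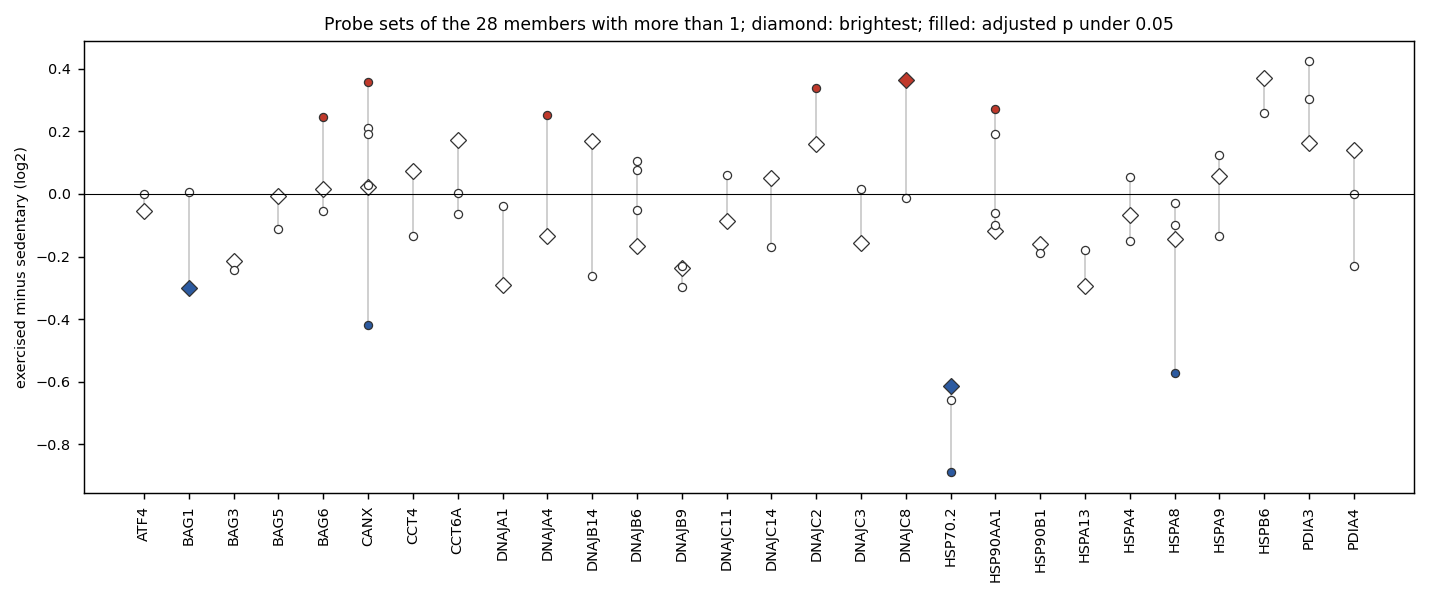
Training change (exercised minus sedentary, log2) of every probe set of the 28 members with more than 1, with the brightest as a diamond and the others as circles. Filled symbols passed the test, and CANX has a filled symbol on each side of 0, at -0.42 and 0.36.

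Some members stood out in single sedentary animals. Sedentary 3, a castrated male on an array with high poly-A control signal, was the highest of its group in 13 members, and sedentary 5, also such a male, in 14. These were 20.0% and 21.5% of the members, while the same animals were highest in 10.0% and 13.5% of all named genes. Sedentary 3 exceeded the mean of the other 7 sedentary animals by 1.23 log2 in HSP70.2, 1.17 in HSPH1, 0.76 in DNAJA1, 0.58 in XBP1, 0.52 in DNAJB1, 0.49 in DNAJB9 and 0.41 in HSP90AA1. These genes are named because that animal was high in them. In HSPH1 it had 9.49, sedentary 5 had 9.16, and the other 14 animals lay between 7.79 and 8.38. In DNAJA1 these animals had 10.83 and 10.57, followed by sedentary 1 at 10.36. Sedentary 3 was not high throughout, since its difference from the mean of the others was 0.05 in HSPE1, -0.02 in HSPB1, -0.48 in HSPB6 and -0.40 in DDIT3. Across probe sets, its array and the average of the other 15 arrays had a correlation of 0.993, within the range of 0.988 to 0.994 over all arrays.

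**Figure D4:**
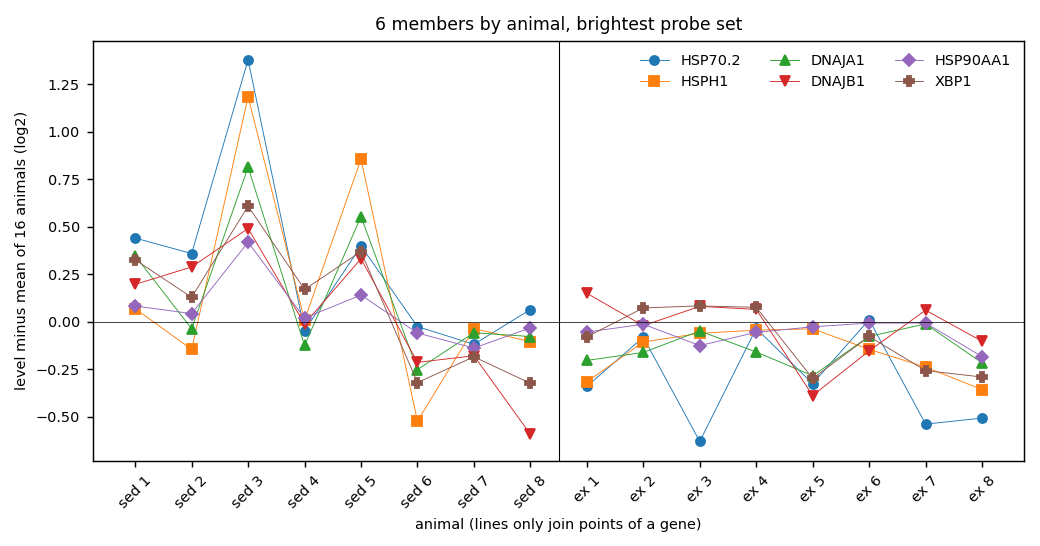
Level of 6 members in each animal as the log2 difference from the gene's mean over the 16 animals, with sedentary animals left of the line and exercised animals right of it. Sedentary 3 is the highest of the 16 animals for all 6 members and sedentary 5 is second for HSPH1 and DNAJA1; the genes were chosen for the level of sedentary 3.

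The spread among animals was described over all members, since genes named for the excess of sedentary 3 have a larger sedentary SD by that choice. The SD was larger in sedentary animals for 47 of 65 (72.3%), against 55.0% of all named genes. Without sedentary 3 these shares were 69.2% and 56.1%, and among the arrays with high poly-A control signal 55.4% and 42.8%. No test was made of these shares. In HSPH1 the SD was 0.56 log2 in sedentary and 0.13 in exercised animals, a ratio of 4.49 that was 3.31 without sedentary 3. In DNAJA1 the ratio was 4.09 with that animal and 3.11 without it. The ratio of HSP90AA1 went from 2.65 to 1.46, and that of HSP70.2 from 1.97 to 0.96. Without sedentary 3 the training changes of HSPH1, DNAJA1, XBP1 and HSP90AA1 were -0.19, -0.20, -0.11 and -0.06, and none passed (limma, adjusted p = 0.479, 0.285, 0.610 and 0.543). HSPH1 and DNAJA1 passed without sedentary 6, at -0.48 (adjusted p = 0.0385) and -0.38 (adjusted p = 0.0451). They also passed among the arrays with high signal alone, at -0.60 (adjusted p = 0.00360) and -0.53 (adjusted p = 0.0107), a set that holds sedentary 3 and 5.

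Many members differed between the array sets. For 11 of 65 members (16.9%) the high and low arrays did not overlap, against 11.3% of all named genes. PDIA3 was 0.80 log2 higher on the arrays with high poly-A control signal, at 10.39 to 10.78 against 9.58 to 10.00. DNAJB11, CANX and CCT2 were 0.40, 0.34 and 0.30 higher there. HSPB1, HSPB7, DNAJB2, DNAJC11, HSPBP1, DNAJC17 and CCT7 were lower there, with differences of -0.77, -0.74, -0.58, -0.57, -0.48, -0.30 and -0.23. The gap between 3' and 5' control probe sets of actin, a sign of RNA or labelling quality, averaged 2.63 on the high and 1.50 on the low arrays. The same gap for GAPDH averaged -0.19 on the high and -0.14 on the low arrays. The part of RNA or labelling quality in these differences was not tested.

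Because both sets held animals of each group, the training effect was also fitted with the array set as a block. Then 10 of 65 members passed, the 7 above and HSPA13, HSPB1 and XBP1, while 14.8% of all named genes passed. In the 11 arrays with high signal alone 11 members passed, against 8.43% of all named genes. These were HSP70.2, HSPA5, BAG1, DNAJC6, HSPA14, DNAJC8, HSPB1, HSPA2, HSPH1, DNAJA1 and XBP1. The only sedentary males in this set were sedentary 3 and sedentary 5, and the sexes count equally in the training effect. Sedentary 3 was the highest of its group in HSP70.2, HSPH1, DNAJA1 and XBP1, and this set was not fitted without it. In the 5 arrays with low signal limma called 0 members, against 0.0739% of all named genes. There 6 members (9.23%) had an unadjusted p under 0.05, against 13.1% of all named genes. Each of the 7 members called with all arrays had the same direction in both sets, but they were chosen on these same arrays, which favours such agreement.

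**Figure D5:**
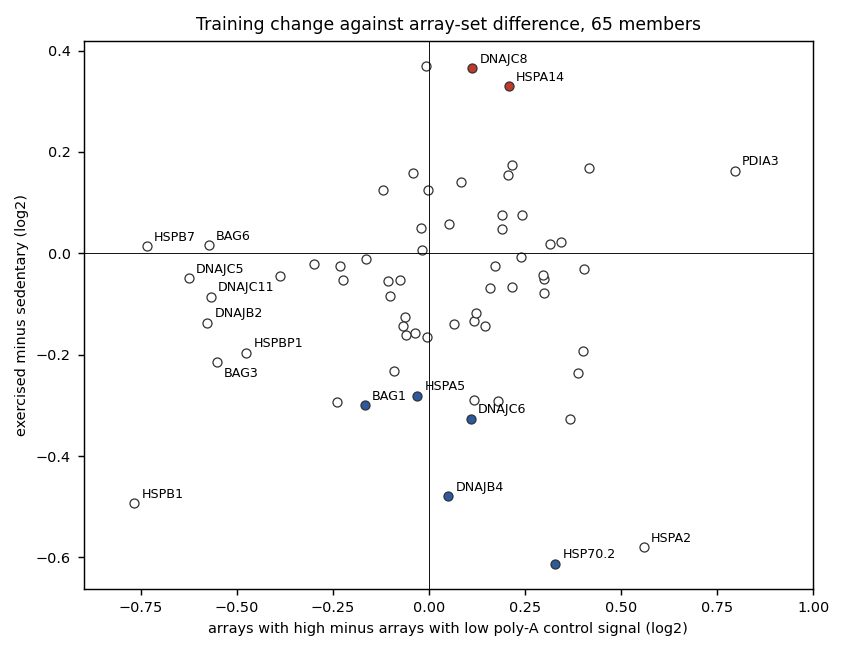
Training change of each of the 65 members (vertical, exercised minus sedentary, log2) against its difference between array sets (horizontal, high minus low poly-A control signal, log2), brightest probe set. Filled points passed the test for training; PDIA3 at 0.80 and HSPB1 at -0.77 lie farthest out on the horizontal axis, and neither is filled.

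The training effect did not differ detectably between females and castrated males in any member. Limma called 0 of 65 members for the difference of the effects and 0.0% of all named genes, and DNAJA3 alone had an unadjusted p under 0.05, against 2.47% of all named genes. Within females 1 member passed, against 2.6% of all named genes. This was DNAJC8, with 9.82 to 10.11 log2 in the 4 exercised and 9.43 to 9.53 in the 4 sedentary females, a change of 0.50 ± 0.10 (SE; limma, adjusted p = 0.0102) that passed in all 16 fits without 1 array. In males its change was 0.23 (adjusted p = 0.228), and the difference of 0.27 ± 0.14 between the sexes did not pass (adjusted p = 1.00).

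Within castrated males 1 member passed, against 2.57% of all named genes. HSP70.2 ran from 9.50 to 9.80 in the 4 exercised males and from 10.01 to 11.51 in the 4 sedentary males. The change was -0.91 ± 0.24 (SE; limma, adjusted p = 0.0474) in males and -0.32 ± 0.24 (adjusted p = 0.538) in females, and the difference of 0.59 ± 0.34 did not pass (adjusted p = 1.00). The male call held in 2 of the 16 fits without 1 array, those without sedentary 6 or 7, and was lost in the others. Without sedentary 3, a male, the change in males was -0.59 (adjusted p = 0.0576). For the sex difference averaged over training, limma called 0 of 65 members against 0.0739% of all named genes. HSPE1, DNAJA3 and STIP1 had an unadjusted p under 0.05, with differences (female minus castrated male) of -0.22, -0.14 and -0.13 (each adjusted p = 0.537), and 10.4% of all named genes reached that threshold.

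Other genes of protein folding were taken from a list of 87, of which 50 were measured. None rose, 1 fell and 49 did not pass, while 10.0% of all named genes passed. At an unadjusted p under 0.05 there were 10, a count to be read against the 22.9% of all named genes at that threshold. SUGT1, a co-chaperone of HSP90, had 7.10, 7.32 and 7.68 log2 in exercised and 7.47, 7.71 and 7.95 in sedentary animals, a change of -0.36 ± 0.09 (SE; limma, adjusted p = 0.0190). PPP1R15A, which ends the translation block of the stress response downstream of ATF4 and DDIT3, had -0.45 ± 0.16 (adjusted p = 0.0754). HSF1, the factor that switches on the heat shock genes, had 0.06 ± 0.15, and CRYAB, the small heat shock protein of heart and lens, -0.15 ± 0.10. With the array set as a block 4 of these genes passed, while 14.8% of all named genes passed. The 4 were SUGT1, FKBP8, CDC37L1 and PPP1R15A, all lower.

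The tissue label was checked against cell type markers. Of 11 cardiomyocyte markers 9 were measured, and their mean level was 14.02 to 14.23 log2 in exercised and 13.99 to 14.14 in sedentary animals, with 0 called by limma and 0 at an unadjusted p under 0.05. Of the 41 markers measured over 8 cell types, 2 were called, while 10.0% of all named genes passed. Both were among the 7 lymphocyte markers and higher in exercised animals. The lymphocyte markers were dim, at mean levels of 4.00 to 6.76 log2, with 0 above the 60th percentile of level. The mean level of the lymphocyte list was 5.46 to 6.03 in exercised and 4.95 to 5.75 in sedentary animals. Endothelial markers ran from 8.31 to 9.00 and from 8.53 to 8.93, and fibroblast markers from 9.75 to 10.45 and from 9.59 to 10.53. Their part in the members' changes was not tested.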

How the data were processed

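Biotin-labelled RNA of the left ventricle was hybridised to 1-colour Affymetrix porcine arrays, per the labels' protocols. The deposited values are log2 signals, 1 per probe set and array. Their summarisation and normalization were not given in the sources used here. All 16 arrays share their minimum, median and maximum, so they had been brought to a common scale before deposit, and nothing further was applied. The number of arrays limits how precise the values are.

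Of 24123 probe sets, 188 controls were left out and 23935 tested. The symbols are those of the array platform and may be old. A single symbol was given for 10069 probe sets, several for 198 and none for 13668, and those with several named no gene. Of the 65 members 64 matched RefSeq's Sscrofa11.1 table by Entrez identifier (CCT6A did not), and 0 symbols changed.

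The model had a mean for each combination of training and sex (12 residual degrees of freedom) and was fitted with limma 3.58.1 (lmFit, eBayes; R 4.3.3). All p-values are two-sided and limma's, adjusted by Benjamini-Hochberg over every probe set tested. The fits were tested on simulated data. Matplotlib 3.10.9 (Python 3.11.15) drew the plots.

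The array sets were divided at the widest gap in poly-A control signal. The fit to the 5 low arrays had no sex term. Other alternatives were the replicate number as a block, quantile normalization, median centring, filters at the 40th and 60th percentiles of level, a trended and robust eBayes, array weights, no sex term, an adjusted p of 0.1, the mean of a gene's probe sets, and fits without 1 array. The shares of members by SD without sedentary 3 and within the high arrays were chosen after seeing the data.

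Values are given for members with a probe set past the threshold, for the 6 largest changes in each direction and for well-known chaperones; others are named with their values as part of their class. The members, the related folding genes and the marker lists were chosen with earlier results of these data known.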

Additional observations from a re-analysis of the deposited data

Results flagged for a closer look

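In 6 of the 146 groups of 8 values examined, the highest or the lowest animal lay far from the nearest of the others, by Dixon's test on the gap over the range of the group. Chance alone flags about 1 in 20 groups. HSP70.2 was far in sedentary 3, at 11.51 log2 against a next value of 10.57, and the dimmest of its 3 probe sets was far in the same animal, at 10.90 against 9.76. BAG1 was far in sedentary 7, at 9.87 against 9.62, the highest of a group that began at 9.42. Among the exercised animals, HSPB11 was far in exercised 4, at 8.07 against 7.74, and HSPB2 in exercised 3, at 10.003 against 9.76. CCT8 was far at the low end in exercised 8, at 11.04 against 11.23. Exercised 8 and sedentary 7 were on arrays with low poly-A control signal and the others on arrays with high signal.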

How the results depend on the processing

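The count of 7 members called stayed at 7 under quantile normalization, median centring, a trended and robust eBayes, array weights and no sex term, each time with all 7 shared. It was 9 at an adjusted p of 0.1, 10 with the array set as a block, 11 in the arrays with high poly-A control signal alone and 0 in those with low signal alone. It was 4 and 3 when only probe sets above the 40th and the 60th percentile of level were tested. Both filters removed DNAJC6, and fewer probe sets entered the adjustment. Without 1 array the count was 5 to 8. The mean of a gene's probe sets gave 7, of which 5 were shared, with DNAJC2 and HSPA8 in place of BAG1 and DNAJC8. The 15 probe sets called became 0 in the low arrays, 6 and 4 above those percentiles, and 12 to 17 without 1 array. The percentile filters also removed the called probe sets of CANX and HSPA8. The 1 related folding gene became 4 with the array set as a block, 4 in the high and 0 in the low arrays, 0 above the 60th percentile, 3 with array weights, and 1 to 2 without 1 array. The 1 member called in females became 2 with the array set as a block and 1 to 3 without 1 array. The 1 called in castrated males became 4 with the array set as a block, 0 above the 40th percentile, 2 with a trended and robust eBayes, and 0 to 2 without 1 array. The cause of these moves was not tested. No member reversed a called change under any alternative.

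Replicate numbers gave no clear sign of pairing. Same-numbered animals had correlations of -0.03 to 0.39 between their deviations from the means of each training and sex combination. Of the 8 numbers, 1 matched its own number best. These values cannot exclude pairing, and same-numbered animals often shared an array set as well. With the replicate number as a block, 9 members, 17 probe sets and 3 related genes were called, and 0 members in females and 0 in castrated males.

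The smallest change called on a brightest probe set was that of HSPA5, -0.28 ± 0.09 (SE). DNAJC6, HSPA6, HSPA12A, DNAJC24 and DNAJC9 lay below the arrays' median of 6.24 log2. The annotation does not say which part of a transcript each probe set reads, so differing probe sets of CANX, HSPA8 or BAG1 cannot be assigned to transcript forms. A p that misses the threshold does not show that a gene was unchanged.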
